A study of Mus musculus with 72 samples.

Results

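The Wnt/β-catenin genes described here are Axin2, Lef1, Tcf7, Nkd1, Dkk1, Notum, Wnt5a, Rnf43, Znrf3 and Ctnnb1. They are 10 named genes of the 50600 in the count table. They were listed by symbol, with earlier results of these data known. RNA was sequenced from 6 mouse melanoma cell lines, each in 4 treatments with 3 replicates, which gives 72 libraries in 24 groups. The ΔEcad lines 1057 and 1064 came from female mice and express their own Grpr, the gene of the gastrin-releasing peptide receptor. Both carry the oncogene Tyr::NRASQ61K/°, lack Cdkn2a (Cdkn2a-/-) and combine Tyr::CreA/° with Cdh1dF/dF, so that Cre, driven by the tyrosinase promoter of pigment cells, removes E-cadherin. The Ecad line 1181 is male, with the same oncogene, Cdkn2a-/- and Cdh1dF/dF, but without Cre. The Ecad line 1014 is female, and only Tyr::NRASQ61K/° is given for it. Each Ecad line was used in a version with CMV::tGFP (1181-Ctrl and 1014-Ctrl) and a version with CMV::Grpr/tGFP (1181-Grpr and 1014-Grpr), made by transfection and selection, in which the CMV promoter drives the receptor. Cells were kept for 18 h in 0.5% serum and then for 4 h with vehicle (mock, 0.1% DMSO), with 10 nM of the receptor's ligand GRP, with 1 µM of the receptor antagonist RC-3095 (RC), or with both (GRP+RC). A line is 1 culture lineage, and nothing in the labels ties the replicates to separate animals, so that p-values measure the spread between libraries of a line.

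In Wnt/β-catenin signalling, a Wnt ligand at its Frizzled receptor stops a complex built on AXIN proteins from marking β-catenin for destruction. β-Catenin then enters the nucleus and works with the DNA-binding proteins LEF1 and TCF7 on target genes. Many of those targets are brakes on the same pathway, and E-cadherin holds another pool of β-catenin at cell contacts. Among the 10 genes, Ctnnb1 encodes β-catenin itself and Lef1 and Tcf7 its DNA-binding partners. Axin2, a scaffold of the destruction complex, and Nkd1, an inhibitor of Dishevelled, are feedback brakes inside the cell. Notum, an enzyme that removes the lipid from Wnt proteins, and Dkk1, which blocks the LRP co-receptors, are secreted brakes. Rnf43 and Znrf3 are ubiquitin ligases that clear Frizzled from the surface, and Wnt5a is a ligand best known for β-catenin-independent signalling.

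Sequences before the start are shown for Nkd1 and Lef1, the pair that fell together after GRP in 1057, and for Dkk1, which was not detected although its window holds motifs. Each sequence is the 250 bases before a RefSeq start of GRCm38.p6, 5′ to 3′ on the gene's strand, and capitals mark a TCF/LEF-type motif. The stretch of Nkd1 is chr8:88527383-88527632 on the plus strand, which lies inside the gene as annotated. That of Lef1 lies before the last of its 4 starts, also inside the gene, at chr3:131156044-131156293 on the plus strand. It is shown because it is the only Lef1 window with a motif. The windows before the other Lef1 starts, among them those near the annotated start of the gene, held none. That of Dkk1 is chr19:30549497-30549746 on the minus strand and overlaps the annotated start of the gene.
Nkd1: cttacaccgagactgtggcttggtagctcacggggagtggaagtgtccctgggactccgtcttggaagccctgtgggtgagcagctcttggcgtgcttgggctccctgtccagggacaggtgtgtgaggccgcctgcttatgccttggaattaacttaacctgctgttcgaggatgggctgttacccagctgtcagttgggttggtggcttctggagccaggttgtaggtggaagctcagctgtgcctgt
Lef1: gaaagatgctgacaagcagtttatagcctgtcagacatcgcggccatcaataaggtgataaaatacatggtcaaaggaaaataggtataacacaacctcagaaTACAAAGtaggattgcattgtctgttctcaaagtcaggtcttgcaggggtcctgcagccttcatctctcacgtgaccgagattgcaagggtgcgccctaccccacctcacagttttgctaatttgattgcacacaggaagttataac
Dkk1: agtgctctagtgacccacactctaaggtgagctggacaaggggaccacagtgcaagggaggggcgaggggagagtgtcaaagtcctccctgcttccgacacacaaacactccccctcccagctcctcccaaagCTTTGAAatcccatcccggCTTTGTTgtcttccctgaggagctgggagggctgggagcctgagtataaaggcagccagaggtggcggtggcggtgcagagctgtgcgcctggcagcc
The motifs searched on both strands were the letters CTTTGAA, the letters CTTTGAT, the letters CTTTGTA and the letters CTTTGTT, none overlapping another. RefSeq windows of 300 bases were found for 7 of the 10 genes (not for Notum, Wnt5a and Znrf3), 13 windows in all, and 2 of them held a motif. Among all 32851 windows of that length 16.9% held one. Counted from the start, the Lef1 match is CTTTGTA read on the other strand, at −147 to −141, and the first bases of the Dkk1 matches lie at −117 (CTTTGAA) and at −98 (CTTTGTT). These matches are descriptions of the sequence only.

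Libraries held 19512882 to 46862053 counted reads (median 28112904.5), and levels are given as CPM, counts scaled to library size with TMM factors over all 72 libraries. All 10 genes are protein-coding. In GRCm38, Axin2 (11:108920349-108950783), Notum (11:120653788-120661175), Rnf43 (11:87662722-87735539), Tcf7 (11:52252371-52283014) and Znrf3 (11:5276324-5444847) lie on chromosome 11. The others are Ctnnb1 (9:120929216-120960507), Lef1 (3:131110471-131224356), Nkd1 (8:88521354-88594884), Wnt5a (14:28504750-28527448) and Dkk1 (19:30545863-30549665). Exons of genes on the opposite strand cover 38.1% of the exon bases of Notum, 14.6% of Ctnnb1 and 13.7% of Lef1. The kit marks strand, but the strand setting of the counting is not given in the sources used here, so reads of those partners cannot be told apart with certainty.

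The labels were checked first. Cdh1, which encodes E-cadherin, had at most 3 counts in every library of 1057 and 1064, 14.5 to 26.9 CPM in 1181-Ctrl and 0.688 to 3.15 CPM in 1014-Grpr. One library went against its label in each of 2 groups. The library labelled 1014-Ctrl mock replicate 2 held 48.1 CPM of Grpr, 22.7 of Cdh1 and 57.7 of Nkd1, where the other 2 libraries of its group had no Grpr count, 2.04 to 3.38 CPM of Cdh1 and at most 1 count of Nkd1. The library labelled 1181-Grpr GRP+RC replicate 2 had no count of Grpr or Lef1, where the other 2 had 18.1 to 36.5 and 14.6 to 25.0 CPM. It held 4.60 CPM of Cdh1, 793 of Xist and no Y-linked Ddx3y. The 1014-Ctrl library held 172 CPM of Xist and 64.2 of Ddx3y, where the rest of 1014-Ctrl held 583 to 1050 and none. In Grpr, Cdh1, Xist and Ddx3y, each library was closer to the line on the other's label. Whether the 2 were exchanged was not tested. Results that rest on either library are given with and without it. All 11 other 1181-Grpr libraries held Xist at 193 to 248 CPM together with the Y-linked Ddx3y at 37.1 to 63.2 CPM, while 1181-Ctrl held at most 0.640 CPM of Xist, so 1181-Grpr differs from 1181-Ctrl in more than the receptor. The 7 melanocytic markers summed to between 5424 and 37572 CPM in every library, and all 7 were detected in each line. Single markers differed widely between lines, others less. Without the 2 libraries that went against their labels, Tyrp1 read 0.838 to 4.18 CPM in 1181-Ctrl and 1224 to 2112 in 1181-Grpr. Pmel read 180 to 210 CPM in 1057 and 2377 to 5872 in 1064, while Sox10 read 729 to 804 and 988 to 1288. Keratinocyte, leukocyte and fibroblast markers summed to at most 5.23, 0.444 and 7.22 CPM. The 4 endothelial markers, mainly Cdh5 and Tek, summed to 7.18 to 9.25 CPM in 1057 and 3.09 to 6.22 in 1064, against at most 0.677 elsewhere, with Pecam1 at no more than 7 counts in 1057 and 1064. Their part in the differences between lines was not tested.

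At rest, the question was how the 10 genes differ between ΔEcad and Ecad lines. The means of Lef1, Tcf7, Axin2, Nkd1, Notum and Znrf3 followed 1 order, highest in 1057, then 1064, then both 1181 versions, and lowest in 1014, where Lef1, Nkd1 and Notum were at or near 0. In these bulk samples, fewer cells with a transcript and less of it per cell cannot be told apart. Ctnnb1, in contrast, was lowest in 1057 and highest in 1014. Wnt5a stood apart, since it was read in 1181 and not in 1057.

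**Figure D1:**
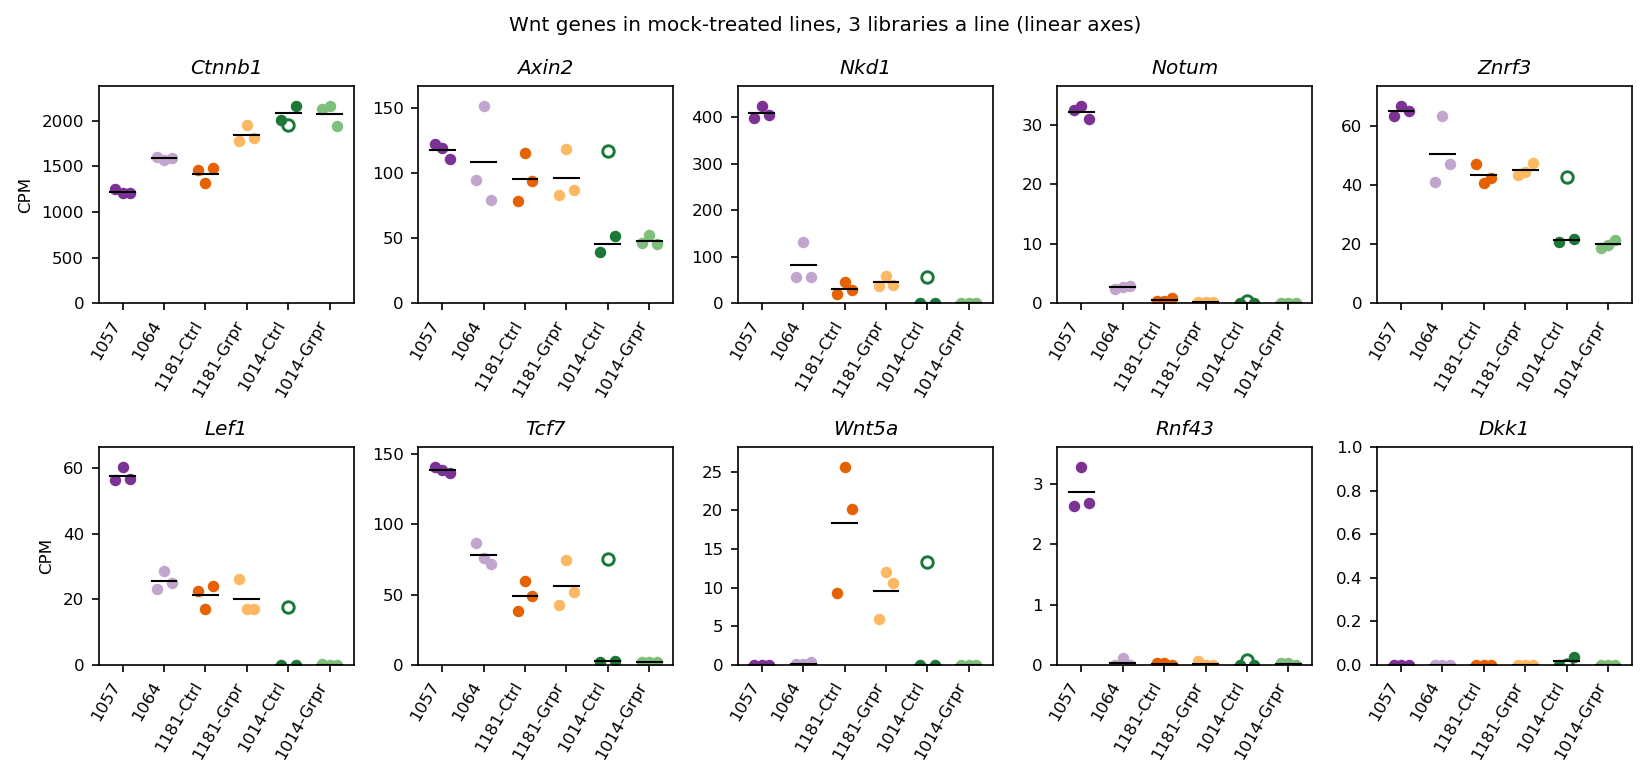
Resting (mock) level of each Wnt/β-catenin gene in CPM by line, 1 point per library. The horizontal bars are means of 3 libraries, or of 2 in 1014-Ctrl, where the open circle is the library labelled 1014-Ctrl mock replicate 2, which went against its label. Nkd1, Lef1, Tcf7 and Notum are highest in 1057, and Ctnnb1 is lowest there.

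Ctnnb1 RNA was abundant everywhere. Its mean was 1220 ± 23.8 CPM (SD, n = 3) in 1057, 1592 ± 18.6 in 1064, 1420 ± 85.1 in 1181-Ctrl, 1845 ± 90.9 in 1181-Grpr, 2041 ± 108 in 1014-Ctrl and 2079 ± 116 in 1014-Grpr. By label the 2 versions of 1014 overlapped, and every other neighbour in this order was separate. Without the 1014-Ctrl library that went against its label, 1014-Ctrl was at 2085 ± 108 CPM (n = 2), just above 1014-Grpr, which then stood next to 1181-Grpr and overlapped it by its lowest library (1947.5 CPM against 1948.5). On the TPM scale, which also divides by gene length, 1064 and 1181-Ctrl changed places (940 and 1059 TPM), with 1057 at 707 and 1014-Ctrl at 1443 TPM.

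Of the DNA-binding partners, Lef1 in 1057 read 56.2, 60.3 and 56.6 CPM in the 3 mock libraries, and in 1064 23.0, 28.6 and 24.8. The 1181-Ctrl libraries gave 22.6, 17.0 and 24.1 CPM. In 1014-Ctrl, 2 libraries had 2 counts each, against 17.6 CPM in the one that went against its label. Lef1 therefore separated 1057 from all other lines, while 1064 overlapped both 1181 versions. Tcf7 read 141, 139 and 137 CPM in 1057, 86.8, 76.1 and 72.2 in 1064, and 38.6, 59.8 and 48.8 in 1181-Ctrl. In 1014-Grpr it read 2.10, 2.05 and 1.81 CPM. Here 1057 and 1064 did not overlap, and 1064 overlapped 1181-Grpr (42.4 to 74.6 CPM) but not 1181-Ctrl. Unlike Lef1, Tcf7 was still read in 1014. Per length it was also the higher of the pair, at 159 TPM against 19.8 TPM for Lef1 in 1057.

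Nkd1 had the widest range. It read 399, 425 and 405 CPM in 1057, 55.8, 132 and 56.7 in 1064, and 20.9, 45.1 and 29.1 in 1181-Ctrl. In 1014-Grpr there were at most 2 counts. At 270.3 ± 13 TPM (SD, n = 3), Nkd1 was the highest of the 10 genes per length in 1057 after Ctnnb1. Axin2 differed far less. Its means were 118 ± 6.28 CPM (SD, n = 3) in 1057, 109 ± 38.4 in 1064, 96.1 ± 18.5 in 1181-Ctrl, 96.4 ± 19.2 in 1181-Grpr and 48.3 ± 3.73 in 1014-Grpr. In 1014-Ctrl it was 69.5 ± 41.8 CPM by label and 45.7 ± 8.92 (n = 2) without the library that went against its label. The first 4 lines overlapped in Axin2 and, without that library, stood apart from both 1014 versions. In 1064, replicate 2 was the highest in both Axin2 (152 CPM, others 94.7 and 79.3) and Nkd1, in the mock group as after every other treatment.

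Notum, the secreted brake, read 32.5, 33.2 and 30.9 CPM in 1057 and 2.48, 2.67 and 2.88 in 1064. In 1181-Ctrl it read 0.386, 0.336 and 0.823 CPM, and in 1014-Grpr no count was found. The lines 1057, 1064 and 1181-Ctrl did not overlap. Relative to a floor of 3 counts per library, Notum in 1057 was at least 282-fold higher than in the 2 remaining 1014-Ctrl libraries, and in 1064 at least 23.5-fold higher. Dkk1 was not detectable at this depth, with at most 1 count in any of the 72 libraries. The floor of 3 counts, which a count of 0 allows, is at most 0.16 CPM in any library on this scale, and these floors cover counting error only.

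Of the surface ligases, Znrf3 read 63.4, 67.0 and 65.2 CPM in 1057 and 41.3, 63.5 and 47.2 in 1064. It was 43.6 ± 3.25 CPM (SD, n = 3) in 1181-Ctrl, 45.2 ± 2.04 in 1181-Grpr and 20.2 ± 1.36 in 1014-Grpr. The related Rnf43 was read in 1057 only at levels above the floor, at 2.64, 3.28 and 2.69 CPM, and had at most 2 counts in any mock library of the other lines. Wnt5a had no count in 1057 and 1014-Grpr and 0.0825 to 0.312 CPM in 1064. It read 9.37, 25.6 and 20.2 CPM in 1181-Ctrl and 5.90, 12 and 10.7 in 1181-Grpr. In 1181-Ctrl it was at least 198-fold higher than in 1057. The 1014-Ctrl libraries had no count but for the one that went against its label, at 13.3 CPM. Without that library, both 1181 versions were above all other lines in Wnt5a, and with it 1014-Ctrl overlapped them.

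Resting lines were compared pair by pair with edgeR's quasi-likelihood test in 1 fit of the 18 mock libraries, with p adjusted by Benjamini-Hochberg over all genes tested. A gene was called at an adjusted p under 0.05 with an absolute log2 fold change above 1. The 4 pairs share lines, so they are not independent, and a pair tests 2 lines, not 2 genotypes. With 1057 against 1181-Ctrl, 4 of 9 members tested were called, where 35.6% of all genes were. Without the 1014-Ctrl library that went against its label, which widens the spread in this fit, 6 of 9 were called (background 37.3%). Notum was higher by 5.99 on the log2 scale (SE 0.644, adjusted p = 4.32e-06) and Nkd1 by 3.69 (SE 1.28, adjusted p = 0.0216). Rnf43, the receptor ligase, is also among the called members here and against 1014-Ctrl, but it passed the filter on low counts only through 1057, so it had to differ. Against the floor of 3 counts it was at least 20.9-fold higher than in 1181-Ctrl. The remaining member called by label is Wnt5a, lower in 1057. Wnt5a passed the filter on low counts only through the 1181 versions, so it had to differ too. Lef1 was 1.45 (adjusted p = 0.234) and Tcf7 1.5 (adjusted p = 0.135) by label, and both passed without that library, at 1.45 (SE 0.261, adjusted p = 0.000181) and 1.51 (SE 0.178, adjusted p = 2.94e-06). Axin2 differed by 0.30 (adjusted p = 0.442) and by 0.30 (adjusted p = 0.216) without the library.

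With 1057 against 1014-Ctrl, 7 of 9 members were called (background 32.1%), and 7 of 9 without the library (34%). Tcf7 was higher by 2.37 (adjusted p = 0.0304) by label and by 5.80 (SE 0.267, adjusted p = 2.12e-10) without it. Ctnnb1 was lower, at −0.76 (SE 0.0926, adjusted p = 7.44e-06), and stayed so at −0.79 (adjusted p = 7.11e-06). Axin2 was at 0.75 (adjusted p = 0.0599) by label and 1.35 (adjusted p = 0.000245) without the library. The call for Wnt5a (−9.94, adjusted p = 0.0124) rests on that 1 library, since without it Wnt5a had no count in either line.

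The second ΔEcad line was compared in the same way. With 1064 against 1181-Ctrl, 2 of 9 members were called (background 32.5%), Notum higher by 2.40 (SE 0.593, adjusted p = 0.00355) and Wnt5a lower, at −6.67 (SE 1.87, adjusted p = 0.00955). Wnt5a passed the filter on low counts only through the 1181 versions, so its call was fixed here as well. Without the library 3 of 9 were called (33.9%), with Nkd1 at 1.35 (adjusted p = 0.00188) in addition, and Tcf7 at 0.67 passed the adjusted p alone (0.00368). Lef1 was at 0.26 (adjusted p = 0.841). With 1064 against 1014-Ctrl, 1 of 9 was called by label (26.6%), Notum at 4.44 (SE 0.716, adjusted p = 0.000204). Notum had 9 counts in the 1014-Ctrl library that went against its label and none in the others. That line was thus too low in Notum to pass the filter on low counts itself. Notum passed it through other lines, so a call as higher against 1014-Ctrl was close to fixed for both ΔEcad lines. Without the library 6 of 9 were called (28.3%), among them Tcf7 at 4.97 (adjusted p = 1.2e-09) and Axin2 at 1.22 (adjusted p = 0.000641). Ctnnb1 was lower in 1064, at −0.37 (SE 0.0922, adjusted p = 0.00333). Against 1181-Ctrl, Ctnnb1 in 1064 was at 0.16 (adjusted p = 0.14) and did not pass.

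**Figure D2:**
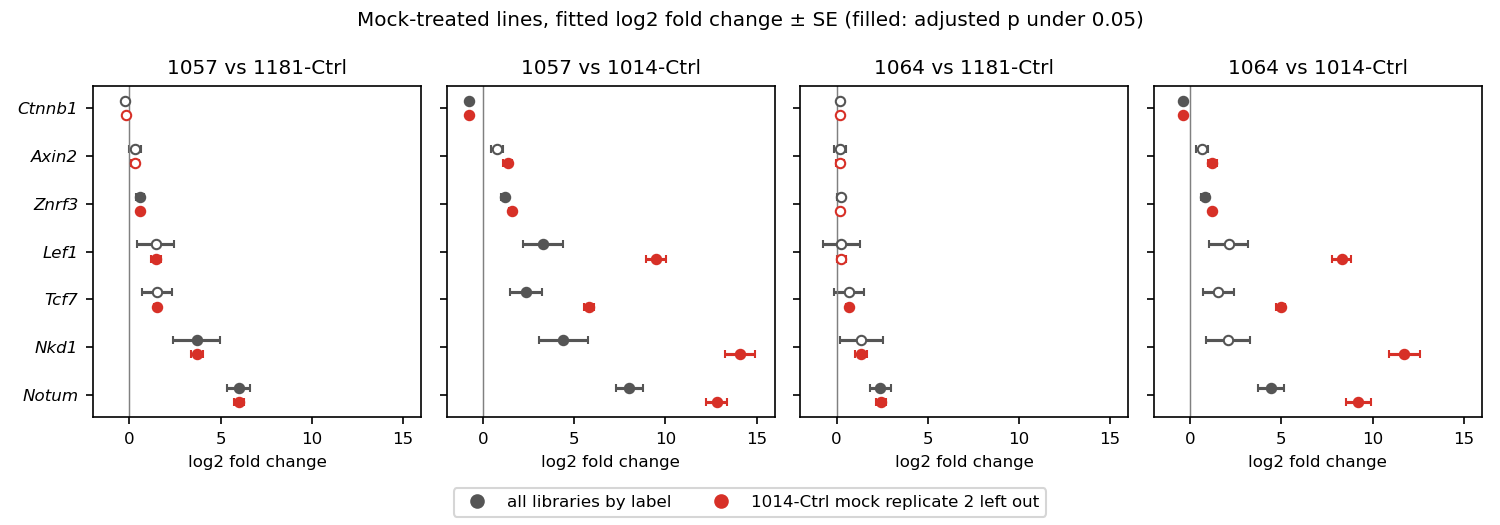
Resting log2 fold change (x axis) of each gene in 1057 or 1064 over 1181-Ctrl or 1014-Ctrl, from edgeR, with bars of 1 standard error. Grey points use all libraries by label, red points leave out the library labelled 1014-Ctrl mock replicate 2, and filled points have an adjusted p under 0.05. Against 1014-Ctrl, red points of Nkd1, Lef1 and Tcf7 lie far to the right of grey ones, and values against a line at or near 0 counts depend on the fit's prior count and are no bounds.

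For E-cadherin status itself the line is the replicate, 2 against 2. On mock counts summed per line, edgeR called 0 of 15814 genes (0%), with 2401 at an unadjusted p under 0.05, while DESeq2 called 1543. Notum was at 5.90 (adjusted p = 0.267), Nkd1 at 3.29 (adjusted p = 0.272), Wnt5a at −6.97 (adjusted p = 0.293), and DESeq2 called these 3 (adjusted p = 0.000229, 0.00615 and 0.000691). All these values are by label. In the 1014-Ctrl sum, the library that went against its label held 1399 counts of Nkd1, 322 of Wnt5a and 9 of Notum. The other libraries of that sum held at most 1 count of Nkd1 and none of Wnt5a or Notum. The values of these genes therefore rest in part on that library. With each replicate left out in turn, edgeR again called 0 genes. Ctnnb1 was at −0.26. E-cadherin status cannot be told apart from Cre, from the expressed receptor or from line history. Line 1181 also differs in sex, and no Cdkn2a status is given for 1014.

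After GRP, compared with mock within each line, members passed the test in 1057 and 1014-Grpr. In 1057, Nkd1 fell by 0.70 and Lef1 by 0.75 on the log2 scale, and Notum, Znrf3 and Ctnnb1 fell by less. In 1014-Grpr, Tcf7 rose from a low level, Znrf3 rose and Ctnnb1 fell. Ctnnb1 thus passed as lower in both lines. In 1064 no member passed in the fit without the replicate block, and Nkd1, Lef1, Axin2 and Ctnnb1 passed as lower with it. In 1181-Grpr and in both control versions no member passed.

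**Figure D3:**
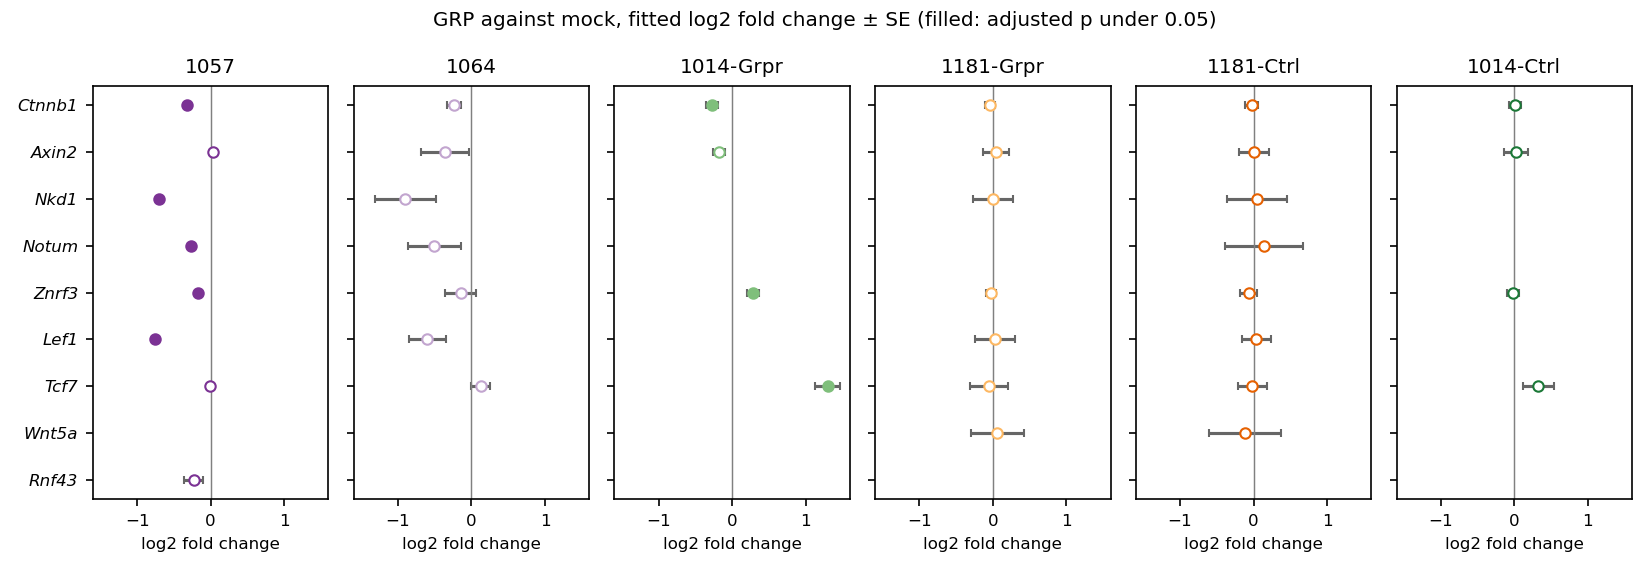
Log2 fold change after GRP against mock (x axis) for each gene in 6 lines, from edgeR, with bars of 1 standard error; filled points have an adjusted p under 0.05. The panels of 1181-Grpr and 1014-Ctrl leave out the library that went against its label. Lef1 and Nkd1 lie near −0.7 in 1057, and Tcf7 is at 1.30 in 1014-Grpr.

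In 1057, Nkd1 went from 399, 425 and 405 CPM to 235, 255 and 255 CPM. Lef1 went from 56.2, 60.3 and 56.6 to 34.5, 33.4 and 33.2 CPM. The mock and GRP libraries did not overlap in either gene. The fall was −0.70 (SE 0.0363, adjusted p = 1.29e-11) for Nkd1 and −0.75 (SE 0.0439, adjusted p = 6.73e-11) for Lef1. Notum (26.1, 27.6 and 25.5 CPM after GRP) fell by 0.26 (SE 0.0472, adjusted p = 0.000136), Znrf3 (56.8, 56.3 and 58.0) by 0.17 (SE 0.0372, adjusted p = 0.000932) and Ctnnb1 (947, 977 and 963, from 1248, 1208 and 1206) by 0.32 (SE 0.0281, adjusted p = 2.26e-08). The groups of these 3 genes did not overlap either. Axin2 (0.03, adjusted p = 0.519), Tcf7 (−0.01, adjusted p = 0.84) and Rnf43 (−0.23, adjusted p = 0.152) did not pass, the first at 123, 120 and 111 CPM before and 117, 121 and 116 after. By the adjusted p alone 5 of 8 members tested were lower and 0 higher, where 26.9% of 14195 genes were lower and 25.7% higher, and their median was −0.24 against −0.01 over all genes. With the fold threshold 0 of 8 were called (background 6.46%). In 1 fit of all 72 libraries, which estimates a gene's spread over all lines, only Ctnnb1 kept an adjusted p under 0.05 of these 5, and Lef1 and Nkd1 had 0.579 and 0.671. With the 2 libraries that went against their labels left out of that fit, Lef1 passed again (0.0203) and Nkd1 did not (0.115).

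In 1064, Nkd1 read 34.3, 57.2 and 39.5 CPM after GRP (55.8, 132 and 56.7 before) and Lef1 10.6, 18.8 and 21.0 (23.0, 28.6 and 24.8 before). Nkd1 of the 2 groups overlapped because of replicate 2, and Lef1 did not. Neither passed, Nkd1 at −0.90 (SE 0.41, adjusted p = 0.231) and Lef1 at −0.60 (SE 0.257, adjusted p = 0.202), and 0 of 7 members were called (background 2.32%). In this line the replicate numbers pair the libraries. With the number as a block, 4 of 7 members passed the adjusted p alone, all lower, where 43.5% of genes passed and 23% did so as lower. These were Nkd1 (−0.82, adjusted p = 0.000286), Lef1 (−0.63, adjusted p = 0.00276), Axin2 (−0.37, adjusted p = 0.00415) and Ctnnb1 (−0.24, adjusted p = 0.00201). Each replicate was lower after GRP than the mock library of its number in all 4 genes. Ctnnb1 also passed in DESeq2 (adjusted p = 0.00645) and in the fits of 72 and 70 libraries (0.0248 and 0.0102), and Nkd1 in that of 70 (0.0393) but not of 72 (0.537).

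In 1014-Grpr only 4 members were read well enough to be tested. Tcf7 rose from 2.10, 2.05 and 1.81 CPM to 5.26, 5.32 and 4.04, with no overlap, by 1.30 (SE 0.169, adjusted p = 0.000155). It was the 1 of 4 members called, where 4.01% of genes were. The count behind it is low, and in 1 fit of all 72 libraries its adjusted p was 0.228, against 1.13e-05 without the 2 libraries in doubt. Znrf3 read 24.7, 24.1 and 24.1 CPM after GRP against 18.9, 19.9 and 21.6 (0.28, SE 0.0808, adjusted p = 0.0194). Ctnnb1 fell from 2125, 2164 and 1948 to 1774, 1766 and 1580 CPM (−0.27, SE 0.0806, adjusted p = 0.0246). Axin2, at −0.18 (adjusted p = 0.121), passed with the replicate block (adjusted p = 0.00272). Lef1, Nkd1 and Notum had at most 6 counts in any library of this line and were not tested.

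In 1181-Grpr, where Lef1, Nkd1, Tcf7 and Axin2 are all well read, none passed the test. Nkd1 read 33.4, 63.9 and 38.4 CPM after GRP and 37.3, 58.5 and 40.0 before. Lef1 read 26.1, 18.4 and 17.3 after and 26.3, 17.2 and 17.0 before. The GRP and mock libraries overlapped in both genes. Without a replicate block, edgeR called 0 of 14506 genes (0%) in this line, with 45 at an unadjusted p under 0.05, and DESeq2 called 0. The replicate numbers pair the mock and GRP libraries here. With the block and without the library that went against its label, edgeR called 16 genes. The Grpr level of 1181-Grpr (median 18.1 CPM) was below that of 1057 (208), 1064 (778) and 1014-Grpr (183). Whether this level bears on the GRP effect was not tested, and the line differs from the others in more than the receptor. In the lines without the receptor edgeR also called 0 genes, with 37 (1181-Ctrl) and 562 (1014-Ctrl) at an unadjusted p under 0.05, and DESeq2 called 0 in each. In 1014-Ctrl, Tcf7 was at −3.12 (adjusted p = 0.698) by label and 0.33 (adjusted p = 1) without the library that went against its label.

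Whether lines differed in the GRP effect was tested as the difference of 2 fold changes. For Tcf7 the effect in 1014-Grpr exceeded that in 1014-Ctrl by 4.42 (SE 1.14, adjusted p = 0.0134) by label, a value set by that library, and by 0.97 (SE 0.26, adjusted p = 0.0131) without it. By label it was the 1 of 4 members called (background 3.89%), and without the library 0 of 4 were (2.99%). With any 1 replicate left out, Tcf7 did not pass there (edgeR, adjusted p = 0.071 to 0.0839). Znrf3 (0.72, adjusted p = 0.0628) and Ctnnb1 (−0.30, adjusted p = 0.0941) did not pass there, while DESeq2 gave adjusted p = 0.0377 and 0.0468. With the block and without the library they passed at 0.30 (adjusted p = 0.0114) and −0.23 (adjusted p = 2.49e-05), although the numbers do not pair the 1014-Ctrl libraries. Comparisons between receptor-bearing lines were added after the values had been seen. Against 1057, the effect in 1014-Grpr was higher for Tcf7 by 1.30 (SE 0.124, adjusted p = 1.01e-07) and for Znrf3 by 0.47 (SE 0.0841, adjusted p = 0.000359), 2 of 8 members by the adjusted p alone (background 15.1%). Between 1057 and 1181-Grpr the differences were −0.80 for Lef1 (adjusted p = 0.723), −0.72 for Nkd1 (adjusted p = 0.767) and −0.30 for Ctnnb1 (adjusted p = 0.123), and 0 of 9 members passed (background 8.28%). Without the 1181-Grpr library that went against its label, Ctnnb1 passed (−0.27, adjusted p = 0.0195) while Lef1 (−0.77, adjusted p = 0.0671) and Nkd1 (−0.69, adjusted p = 0.114) did not. With the replicate block in addition, Lef1 (−0.77, adjusted p = 1.12e-09), Nkd1 (−0.67, adjusted p = 8.69e-10) and Ctnnb1 (−0.27, adjusted p = 3.18e-07) passed, 3 of 9 members where 35.2% of genes did. The numbers pair the mock and GRP libraries of 1181-Grpr and not those of 1057. Nkd1 also passed without replicate 2 (−0.57, adjusted p = 0.0262). In 1181 the effect in the receptor version minus the control version gave 0 of 15041 genes (58 at an unadjusted p under 0.05, 0 by DESeq2).

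The antagonist was tested in cells given GRP, as GRP+RC against GRP, which shares the GRP libraries with the comparisons above. In 1057, Nkd1 read 315, 294 and 304 CPM in GRP+RC and Lef1 41.1, 38.6 and 40.3. Both lay between the GRP and the mock libraries without touching either. Nkd1 was higher than with GRP alone by 0.27 (SE 0.0364, adjusted p = 1.68e-05) and Lef1 by 0.23 (SE 0.0452, adjusted p = 0.000937). Notum (0.16, adjusted p = 0.0215) and Ctnnb1 (0.12, adjusted p = 0.00295) were also higher, and Tcf7 was lower (−0.10, adjusted p = 0.0106). Tcf7 did not pass with any 1 replicate left out (adjusted p = 0.0555 to 0.142) or with no filter on low counts (0.0999), nor did Notum without replicate 1 (0.0822) or 3 (0.228). With these, 5 of 8 members passed by the adjusted p alone (background 24.7%), and 0 of 8 with the fold threshold (1.02%). In 1014-Grpr, Tcf7 was 2.22, 3.05 and 2.78 CPM in GRP+RC, below all GRP libraries, lower by 0.87 on the log2 scale (−0.87, SE 0.167, adjusted p = 0.00533), 1 of 4 members by the adjusted p alone (background 11.8%). Ctnnb1 there was at 0.20 (adjusted p = 0.137), and with the replicate block, which pairs these libraries, it passed (0.20, adjusted p = 5.07e-05). In 1064, 0 of 7 members passed (background 0.029%), and with the replicate block Nkd1 did (0.42, adjusted p = 0.0209), where 10.3% of genes passed as higher.

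RC alone was compared with mock after the values had been seen. In 1057, Nkd1 and Lef1 were lower with the antagonist alone. Nkd1 read 356, 361 and 358 CPM and Lef1 48.2, 51.0 and 47.2, all below every mock library, by −0.20 (SE 0.0359, adjusted p = 0.000509) and −0.25 (SE 0.0425, adjusted p = 0.000354). Znrf3 (−0.14, adjusted p = 0.012) and Ctnnb1 (−0.08, adjusted p = 0.0384) were lower too, so that 4 of 8 members passed the adjusted p alone, all lower (background 24.3%, and 11.3% lower). Ctnnb1 did not pass with any 1 replicate left out (adjusted p = 0.0716 to 0.266), with DESeq2 size factors (0.0644) or with no filter on low counts (0.0775), nor did Znrf3 without replicate 2 (0.121) or 3 (0.155). In 1064, 1181-Grpr and 1014-Grpr edgeR called 0 genes for RC alone, with 129, 33 and 161 at an unadjusted p under 0.05, and DESeq2 called 0 in each.

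**Figure D4:**
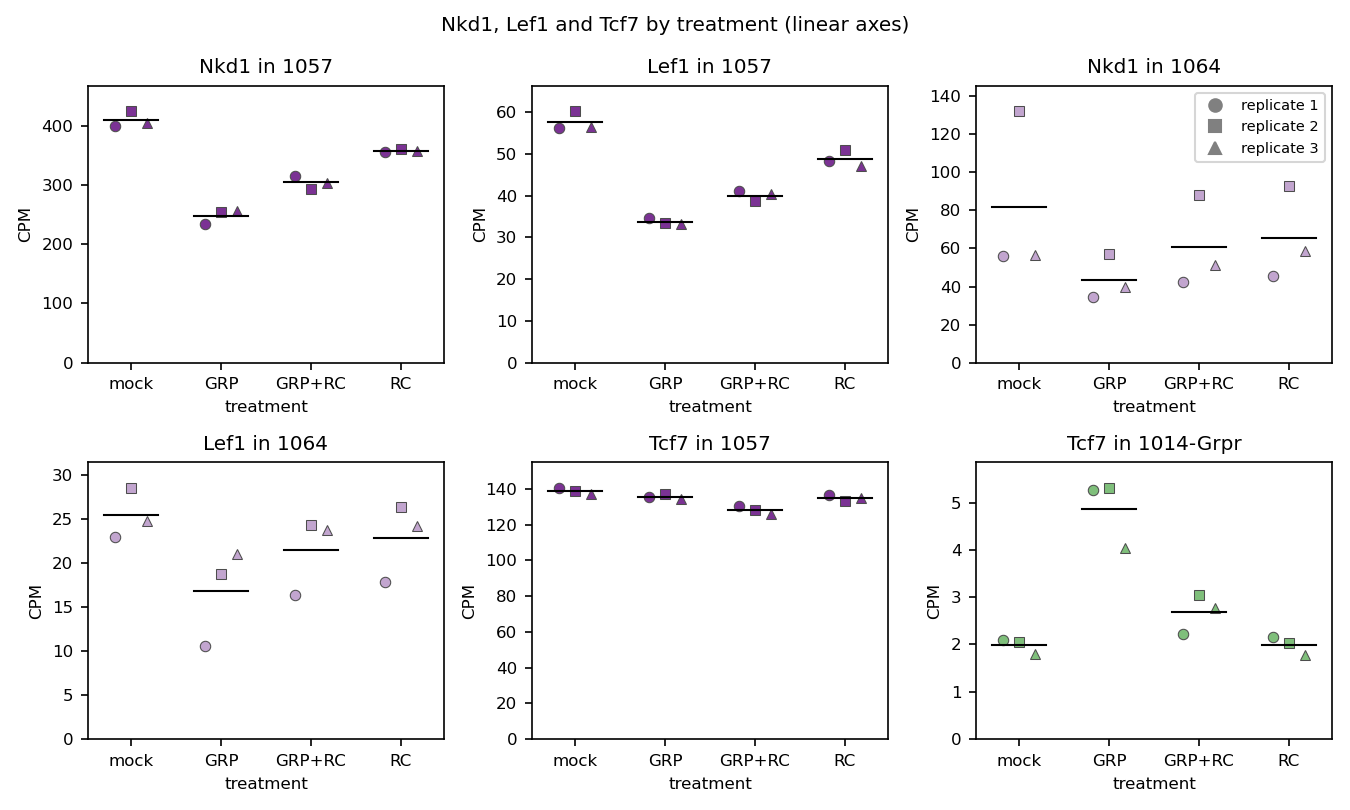
Level in CPM (y axis, from 0) by treatment for Nkd1 and Lef1 in 1057 and 1064 and for Tcf7 in 1057 and 1014-Grpr, 1 point per library with the group mean as a bar. In 1057, Nkd1 and Lef1 are highest in mock, lowest after GRP and between them in RC and GRP+RC.

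The rest of the pathway was read through 105 other genes in 8 lists by role. In 1057, 74 were tested after GRP, and 7 were called higher and 2 lower, which is 12.2% where 6.46% of all genes were called, with a median of −0.08 against −0.01. In 1064 it was 1 higher and 2 lower of 64 (4.69%, background 2.32%), and in 1014-Grpr 3 higher and 1 lower of 62 (6.45%, background 4.01%). Among the nuclear partners of β-catenin, 9 of 12 were lower by the adjusted p alone in 1057, where 26.9% of all genes were, and 7 of 12 in 1014-Grpr, where 12.7% were. In 1064, 2 of 11 were lower (background 2.76%) and 1 higher. The medians of the list were −0.35 in 1057, −0.48 in 1014-Grpr and −0.34 in 1064, against −0.01, −0.02 and −0.02 over all genes. Among them Tcf7l2, a relative of Tcf7, was lower in 1057 (−0.81, adjusted p = 1.4e-09), 1064 (−1.03, adjusted p = 0.0194) and 1014-Grpr (−0.77, adjusted p = 0.000351). The co-repressor Tle3 went the other way in 1057 (0.95, adjusted p = 1.79e-13). Tcf7l2 and Tle3 were picked out after their values were seen.

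Fzd5, a Frizzled receptor, was the single gene of the lists called after GRP in at least 2 receptor-bearing lines. It rose from 8.34 ± 1.09 to 24.1 ± 1.52 CPM (SD, n = 3) in 1057 (1.55, SE 0.0772, adjusted p = 6.46e-12) and from 19.2 ± 6.96 to 54.2 ± 6.44 in 1064 (1.5, SE 0.227, adjusted p = 0.00745). In 1014-Grpr it rose from 9.92 ± 0.58 to 16.5 ± 2.06 CPM, under the fold threshold (0.75, adjusted p = 0.000286). In 1181-Grpr it was 8.72 ± 0.736 and 9.39 ± 1.33 CPM (0.11, adjusted p = 1). With GRP+RC it was lower than with GRP in 1057 (−0.47, adjusted p = 5.31e-05) and 1014-Grpr (−0.68, adjusted p = 0.00149).

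At rest, 76 of the 105 genes were tested. Called higher and lower were 26 and 14 in 1057 against 1181-Ctrl, 23 and 11 against 1014-Ctrl, and, for 1064, 16 and 16 against 1181-Ctrl and 17 and 16 against 1014-Ctrl. In this order that is 52.6%, 44.7%, 42.1% and 43.4% of the list genes, where 35.6%, 32.1%, 32.5% and 26.6% of all genes were called. The naming rule takes at most 12 genes called the same way in all 4 pairs, which share lines, by largest mean absolute log2 fold change. That limit was reached, so 12 is not the number of list genes called alike. The share of all genes called alike was not counted. Higher in 1057 and 1064 were the ligands Wnt5b and Wnt11, the secreted inhibitor Sfrp4, the DKK receptor Kremen1, Nkd2, the transcription factor gene Tcf4, and Jup, which encodes the β-catenin relative plakoglobin. In 1057, 1064, 1181-Ctrl and 1014-Ctrl, Wnt5b read 1.24, 1.86, 0.0637 and 0.270 CPM and Wnt11 1.15, 1.36, 0.0847 and 0.0138. Sfrp4 read 4.38, 22.8, 0.120 and 0.190 CPM. Both control versions were too low in these genes to pass the filter on low counts themselves. A call as higher was therefore close to fixed for Wnt5b, Wnt11 and Sfrp4. Tcf4 read 624 ± 16 CPM in 1057 and 402 ± 114 in 1064 (SD, n = 3), against 70.7 ± 13.9 in 1181-Ctrl and 75.9 ± 22.4 in 1014-Ctrl. Kremen1 read 611 ± 10.9 and 288 ± 112 CPM against 107 ± 5.53 and 79.5 ± 27.8. Nkd2, the second Naked gene, was higher in 1064 (211 ± 41.4 CPM) than in 1057 (71.4 ± 0.943), the reverse of Nkd1, and lay at 17.3 ± 9.61 in 1181-Ctrl and 21.4 ± 12.8 in 1014-Ctrl. Jup read 338 ± 7.06 and 416 ± 71.8 CPM against 57.3 ± 21.0 and 22.3 ± 33.4. The last mean is carried by the 1014-Ctrl library that went against its label: without it the log2 difference of Jup went from 3.92 to 6.78 for 1057 and from 4.22 to 7.07 for 1064. Lower in both were the receptors Fzd1 (17.6 ± 0.284 and 23.1 ± 3.47 CPM against 51.2 ± 3.68 and 60.7 ± 3.35) and Fzd4, the kinase gene Csnk1e (86.2 ± 3.05 and 80.9 ± 11.1 against 193 ± 14.2 and 231 ± 22.1), Pygo1 and Cdh1. Cdh1 is the gene deleted in 1057 and 1064, so its call was set by the design and is no finding, though the counts above include it. Without the 1014-Ctrl library that went against its label, Pygo1 in 1057 against 1014-Ctrl (−0.96) fell under the fold threshold.

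Over all 72 libraries, the 5 genes whose log2(CPM + 1) followed Axin2 most closely, among 16561 genes, were Nat8f1 (Pearson r = 0.94), Ctsf (0.938), Nt5c3b (0.935), Tgfbr2 (0.931) and Nkd1 (0.931). Between members, r was 0.977 for Lef1 with Tcf7, 0.974 for Lef1 with Nkd1 and −0.82 for Ctnnb1 with Nkd1. The points share lines, 12 libraries each, so that these values describe the 6 lines more than 72 separate samples.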

How the data were processed

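Per the labels and the study's methods, RNA of 72 samples was made into strand-specific poly(A) libraries, sequenced in pairs and aligned with STAR to mm10 (GRCm38.p5). The authors deposited raw read counts per gene, without normalization, and TPM values, which divide by gene length, with a decimal comma in some columns. The TPM were used only to set levels of different genes side by side. Symbols were given to 99.6% of the Ensembl identifiers from a table of gene names.

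Counts were filtered with filterByExpr, scaled by TMM and tested with edgeR 4.0.16 (quasi-likelihood, in R 4.3.3), in 1 fit per line for treatments, and p was adjusted by Benjamini-Hochberg over all genes. The main fits have no replicate block, and the fold threshold is the study's. Alternatives were DESeq2 1.42.0, its size factors, keeping genes of low count, dropping the fold threshold, a replicate block, leaving out each replicate or the 2 libraries that went against their labels, and 1 fit of all libraries. The fits were tested on simulated counts, where edgeR recovered 100% of 2-fold changes in 1057 (14195 genes), 98% in 1064 (13794 genes), 97% in 1014-Grpr (13730 genes), 99% in the resting fit (15358 genes) and 86% with 2 against 2 lines (15814 genes). The simulated counts had the same fixed spread in every gene and every fit, and only genes of higher count were changed. Recovery was scored by the adjusted p alone. The real spread between lines was not simulated, so these shares check the procedure and do not give the power of the real tests. Same-numbered libraries were taken as pairs where their deviations from the group means correlated over 0.1 in all 3 numbers. For mock and GRP this held in 1064 (0.696 to 0.818), 1014-Grpr, 1181-Grpr and 1181-Ctrl, and not in 1057 (0.049 to 0.179) or 1014-Ctrl. No replicate pair was a copy (chi-square per degree of freedom 2.56 or more). Plots used matplotlib 3.10.9.

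The members and lists were chosen with earlier results of these data known. Named were all members, checks of the labels, list genes called after GRP in at least 2 receptor-bearing lines or alike in all 4 resting pairs, and the 5 genes most like Axin2. The list genes were limited to those with the largest mean absolute log2 fold change.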

Additional observations from a re-analysis of the deposited data

Results flagged for a closer look

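With all replicates in the fit, the GRP effect on Tcf7 differed between lines in tests of the difference itself. Between 1014-Grpr and 1014-Ctrl the difference was 4.42 on the log2 scale by label (edgeR, adjusted p = 0.0134), and 0.97 (adjusted p = 0.0131) without the library labelled 1014-Ctrl mock replicate 2, in which Tcf7 was at 75.3 CPM. This difference did not pass with any 1 replicate left out (adjusted p = 0.071 to 0.0839). Between 1014-Grpr and 1057 it was 1.30 (adjusted p = 1.01e-07). In 1014-Grpr all 3 GRP libraries were above all 3 mock libraries, and in 1057 the GRP and mock libraries overlapped. The GRP effect on Znrf3 also differed between 1014-Grpr and 1057, by 0.47 (adjusted p = 0.000359), being above 0 in the first line and below 0 in the second. The 2 comparisons with 1057 were chosen after the data had been seen.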

How the results depend on the processing

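Counts of calls are given as genes (members) unless said. With the adjusted p alone, GRP gave 7462 (5) in 1057, 880 genes in 1064 and 3986 (3) in 1014-Grpr, GRP+RC against GRP 3501 (5), 4 genes and 1616 (1), and RC 3448 (4) in 1057; the differences gave 1929 genes (1014-Grpr minus 1014-Ctrl), 2354 (2) (1014-Grpr minus 1057) and 1311 genes (1057 minus 1181-Grpr), and the resting pairs 9272, 8419, 9077 and 8092 genes, the last with 3 members. DESeq2 gave 62 genes for GRP+RC in 1057, 499 (GRP) and 64 (GRP+RC) in 1064, 0 members for 1014-Grpr minus 1014-Ctrl, 4 members for 1057 against 1014-Ctrl and 1543 (3) for 2 against 2 lines. The replicate block gave 900 (GRP) and 266 (GRP+RC) genes in 1064, against 320 and 2 without it, 1 for RC in 1014-Grpr and 2 members for 1064 against 1014-Ctrl; the numbers pair no libraries in 1057 and the resting fits, and apart from the members named in the report and those here the block alone changed no member's call by both thresholds. With the block and without the libraries that went against their labels, 1181-Grpr gave 16 (GRP) and 6 (GRP+RC) genes, 1057 minus 1181-Grpr 746, and 1064 against 1014-Ctrl 7 members. Without those libraries alone, members were 0 for 1014-Grpr minus 1014-Ctrl and 6 for 1064 against 1014-Ctrl. No filter on low counts gave 12 genes for GRP+RC in 1064, 1 for RC in 1014-Grpr, 2 members for 1064 against 1014-Ctrl and 167 genes for 2 against 2 lines. One fit of all 72 libraries gave 682 genes for GRP in 1064, 0 members in 1014-Grpr and 392 (4) in 1014-Ctrl, and one of 70 libraries, added later, 767 in 1064 and 1 in 1181-Grpr. For 2 against 2 lines, taking the 12 mock libraries as replicates gave 4203 (4), but libraries of 1 line are not replicates of E-cadherin status. Wnt5a at rest went from −9.94 to 0 in 1057 against 1014-Ctrl without the library labelled 1014-Ctrl mock replicate 2 (also without replicate 2; −10.55 to 0 over the replicates left out), and from −4.62 to 5.15 in 1064 against 1014-Ctrl with the block in addition (a fitted value against 0 counts, no bound); that library holds the 13.3 CPM of Wnt5a in its group. Other causes were not tested.

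Leaving out each replicate in turn gave 0 to 333 genes for GRP in 1064 (0 without replicate 1 or 2) and 0 to 0 for GRP+RC there, 136 to 191 (0 to 1 members) for GRP+RC in 1014-Grpr, 280 to 335 (0 to 0) for 1014-Grpr minus 1014-Ctrl and 131 to 360 for 1057 minus 1181-Grpr (131 without replicate 3). At rest it gave 3 to 6, 4 to 7, 2 to 3 and 1 to 5 members in the pairs in the order of the report. The falls of Nkd1 and Lef1 in 1057 ranged from −0.72 to −0.68 and −0.80 to −0.71, and the rise of Tcf7 in 1014-Grpr from 1.25 to 1.35. Tcf7 in GRP+RC against GRP in 1014-Grpr passed the adjusted p in the whole set and not without replicate 1 (adjusted p = 0.121) or 2 (0.0843), and the same held for Znrf3 and Ctnnb1 after GRP there (0.0977 to 0.157 without replicate 1 or 2). The lines, 1 lineage each, limit what is said of genotypes.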

Other observations

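Several genes of the lists that the naming rule did not pick were called after GRP in a single line, and these were chosen after their values were seen. In 1057 the secreted Wnt inhibitor Sfrp4 rose from 4.38 ± 0.359 to 28.1 ± 1.20 CPM (SD, n = 3), by 2.71 on the log2 scale (edgeR, adjusted p = 7.85e-16), and RC alone also raised it, by 1.18 (adjusted p = 6.11e-09). Sp5, a target gene that encodes a transcription factor, fell from 19.2 ± 3.60 to 7.83 ± 1.20 CPM (−1.26, adjusted p = 3.15e-06). The R-spondin receptor gene Lgr5 fell from a low level (1.13 ± 0.164 to 0.331 ± 0.175 CPM, −1.70, adjusted p = 0.000101). The ligand Wnt11 rose from 1.15 ± 0.200 to 3.37 ± 0.167 CPM (1.58, adjusted p = 5e-08).

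In 1014-Grpr the target gene Myc rose from 52.8 ± 3.59 to 104.7 ± 10.7 CPM (1.00, adjusted p = 5.15e-05) and was lower in GRP+RC than with GRP alone (−0.52, adjusted p = 0.0102). The ligand gene Wnt10a rose from 0.0561 ± 0.0301 to 0.905 ± 0.297 CPM (3.86, adjusted p = 0.000454) and was lower in GRP+RC (−2.28, adjusted p = 0.0109), at counts too low to set the size of the change.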
